A study of Mus musculus with 6 samples.

Results

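The 10 genes Mpo, Elane, Ltf, Camp, Ngp, Lcn2, Mmp8, Retnlg, S100a8 and S100a9, which encode granule and cytosolic proteins of neutrophils, were examined in the cochlea of young and old C57BL/6 mice. They were taken by name from 25823 genes in the RNA-sequencing table, after the FPKM values of all transcripts of a gene were summed. All 10 were in the table, and all 10 reached, with or without young replicate 1, the mean of 0.1 FPKM (fragments scaled to transcript length and library size) that a gene needed to be tested, as did 19649 genes in all. The young group was 1 month old and the old group 12 months old, with 3 samples each, and both groups were untreated C57BL/6 mice. Cochlear basilar membranes were dissected, and tissue of 3 mice was mixed in each sample, so that single mice cannot be seen. The age groups were tested against each other with limma on log2(FPKM + 0.1), and every log2 change is old minus young.

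Neutrophils are short-lived white blood cells that mature in bone marrow and fill their granules in a fixed order. Promyelocytes make the azurophil granules, with myeloperoxidase (Mpo) and neutrophil elastase (Elane). Myelocytes and metamyelocytes then make the specific granules, with lactoferrin (Ltf), cathelicidin (Camp), neutrophilic granule protein (Ngp) and lipocalin-2 (Lcn2), and later the gelatinase granules. The mRNA for the azurophil proteins is largely gone from mature neutrophils, which keep much mRNA for S100a8 and S100a9, the subunits of the cytosolic protein calprotectin. Mpo and Elane are therefore read as genes of marrow precursors, and S100a8 and S100a9 as genes of later stages. The temporal bone around the cochlea holds marrow.

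Promoter sequence of 7 of the genes (RefSeq, GRCm38.p6) is shown, since these genes moved together over the samples: the azurophil pair, 3 specific granule genes and the calprotectin pair. All 10 genes had an entry in the RefSeq promoter table. Each sequence starts 250 bases before the RefSeq start and ends there or at the first exon annotated in GENCODE M21, whichever comes first. Capitals mark matches, on the printed or the other strand, to the letters TTGCNNAA (C/EBP-like, for the family that drives granulocyte genes) or GAGGAA (ETS-like, as in the core site of the myeloid factor PU.1). The 2 motifs did not overlap each other in these sequences, and a match is only a description of the letters.
Mpo (chr11:87793534-87793580, plus strand): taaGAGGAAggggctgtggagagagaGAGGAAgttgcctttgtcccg
Elane (chr10:79886062-79886246, plus strand): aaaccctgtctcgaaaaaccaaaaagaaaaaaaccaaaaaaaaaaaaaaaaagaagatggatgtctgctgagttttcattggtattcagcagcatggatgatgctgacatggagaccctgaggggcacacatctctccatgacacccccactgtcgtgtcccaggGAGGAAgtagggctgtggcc
Ltf (chr9:111019042-111019270, plus strand): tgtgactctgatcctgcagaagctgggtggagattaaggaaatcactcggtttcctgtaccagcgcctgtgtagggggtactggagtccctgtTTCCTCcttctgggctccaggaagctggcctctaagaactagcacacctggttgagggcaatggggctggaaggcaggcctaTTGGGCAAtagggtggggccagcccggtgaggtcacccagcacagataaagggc
Camp (chr9:109849618-109849706, minus strand): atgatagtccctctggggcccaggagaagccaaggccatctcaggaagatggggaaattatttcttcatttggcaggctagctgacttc
Ngp (chr9:110419558-110419746, plus strand): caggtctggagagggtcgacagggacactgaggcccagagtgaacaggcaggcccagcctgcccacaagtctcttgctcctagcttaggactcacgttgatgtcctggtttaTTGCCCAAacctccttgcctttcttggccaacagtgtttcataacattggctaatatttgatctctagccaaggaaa
S100a8 (chr3:90668821-90668977, plus strand): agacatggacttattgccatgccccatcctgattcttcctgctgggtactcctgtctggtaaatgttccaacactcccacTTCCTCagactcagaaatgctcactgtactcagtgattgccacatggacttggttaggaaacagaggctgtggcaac
S100a9 (chr3:90695722-90695971, minus strand): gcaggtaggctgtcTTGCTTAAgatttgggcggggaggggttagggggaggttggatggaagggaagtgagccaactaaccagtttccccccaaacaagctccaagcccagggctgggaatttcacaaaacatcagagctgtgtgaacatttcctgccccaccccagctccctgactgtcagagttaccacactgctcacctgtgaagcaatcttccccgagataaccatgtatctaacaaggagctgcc
Over the full 250 bases, the C/EBP-like letters were present before 6 of the 10 genes (Ltf, Ngp, Lcn2, Mmp8, Retnlg and S100a9) and in 9.56% of all 32851 promoter windows of this length. The ETS-like letters were present before 6 of the 10 (Mpo, Elane, Ltf, Lcn2, Mmp8 and S100a8) and in 23.3% of all windows. The Camp window held neither.

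The genes lie on 6 chromosomes, and all are annotated as protein-coding (GENCODE M21, GRCm38). S100a8 and S100a9 are neighbours within 26.7 kb of chromosome 3 (90668978 to 90695721) on opposite strands. Camp, Ngp and Ltf lie within 1195 kb of chromosome 9 (109847379 to 111042767). Of the 22 other genes tested in that stretch, 1 was highest in young replicate 1 by at least 2-fold over the next sample, Lrrc2, named here after its value was seen. Mpo overlaps a gene on the other strand, Gm11505, which was not in the table.

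Each sample held an estimated 12280000 to 15540000 fragments, from the spacing of its low FPKM values. These estimates give fragment numbers for transcripts of at least 500 nt. The numbers carry counting error and also depend on how fragments were assigned to the transcripts of a gene. Genes of the sensory epithelium were present in all samples. Ocm, a calcium buffer of outer hair cells, lay between 47.8 and 173 FPKM, and Gjb2, which encodes a gap junction protein of supporting cells, between 339 and 478 FPKM.

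The highest value of the 6 samples was in young replicate 1 for 10 of the 10 genes, as it was for 13.1% of all genes tested. In 7 of them young replicate 1 was at least 2-fold above the next sample, against 1.3% of all genes, and the exceptions were Mpo, Ltf and Lcn2. The next highest value was in old replicate 1 for 8 of the 10, all but Lcn2 and Mmp8. Of all genes tested, 2.06% had this order of their upper samples. Among the young samples, replicate 2 held the lowest value, or shared it at 0, for 10 of the 10 genes. The summed FPKM of the 10 genes was 454, 14.5 and 34.0 in young replicates 1, 2 and 3, and 87.8, 54.8 and 20.6 in old replicates 1, 2 and 3. The samples of 1 age group thus differed more from each other than the age groups did, and these counts were made after the values were seen. In these bulk samples fewer cells of a type and less RNA per cell cannot be told apart.

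**Figure D1:**
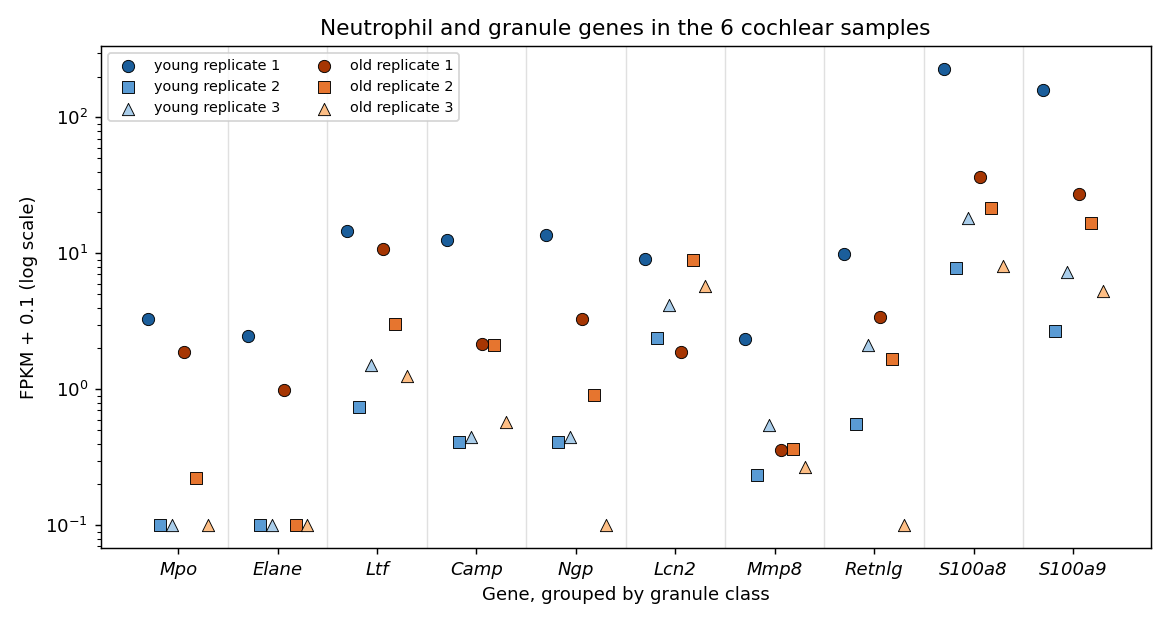
FPKM + 0.1 on a log axis for each of the 10 genes, with 1 point per sample. Young replicate 1 (dark blue circles) is the highest point of every gene, and points at 0.1 are values listed at 0.

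Mpo, the azurophil enzyme that makes hypochlorous acid, was at 3.18 FPKM in young replicate 1 and listed at 0 in young replicates 2 and 3. In the old samples it was at 1.78 FPKM in replicate 1, at 0.122 FPKM in replicate 2 and listed at 0 in replicate 3. Thus 2 samples, 1 of each age, held nearly all of it. The FPKM of Mpo is a sum over 4 transcripts, which weights a fragment more when it is assigned to a short one. In old replicate 1, 1.57 of the 1.78 FPKM came from ENSMUST00000143021, a transcript of 806 nt, while in young replicate 1 the transcripts of 2409 and 2750 nt held 1.35 and 0.669 FPKM. In estimated fragments the gene had 67.2 in young replicate 1 and 13.8 in old replicate 1, a ratio of 4.66 after division by depth against 1.79 in FPKM.

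Elane, the serine protease of the same granules, was at 2.39 FPKM in young replicate 1 and 0.891 FPKM in old replicate 1, from 22.0 and 7.60 estimated fragments, and was listed at 0 in the other samples. Elane and Mpo therefore marked the same samples. At a single transcript of 984 nt, 1 fragment of Elane was worth between 0.0914 and 0.117 FPKM.

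Among the specific granule genes, Camp, the precursor of the antimicrobial peptide CRAMP, was at 12.6, 0.308 and 0.343 FPKM in young replicates 1, 2 and 3. The old samples had 2.07, 2.01 and 0.475 FPKM in replicates 1, 2 and 3. Young replicate 1 was 38.5-fold above the mean of the other young samples, which rested on 2.0 fragments each. Ngp, whose protein is related to the cathelicidins, had 13.5, 0.309 and 0.344 FPKM in the young samples. Its old values were 3.17 FPKM in replicate 1 and 0.813 FPKM in replicate 2, and it was listed at 0 in replicate 3. Young replicate 1 was 41.3-fold above the mean of the other young samples for Ngp. Both genes thus had 1 sample far above the rest, and the age groups overlapped for both.

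Ltf, the iron-binding lactoferrin, measured 14.4, 0.639 and 1.40 FPKM in young and 10.7, 2.94 and 1.15 FPKM in old replicates 1 to 3. Old replicate 1 lay close to young replicate 1 for this gene, at a ratio of 1.35 of young replicate 1 to old replicate 1. This was the lowest ratio of the 10 genes. It was 1.79 for Mpo, 2.68 for Elane, 2.93 for Retnlg, 4.25 for Ngp and 5.03 for Lcn2. Camp had 6.08, S100a8 6.25, S100a9 5.78 and Mmp8 8.78. The full-length transcript of 2743 nt alone gave 10.7 and 9.58 FPKM in these samples, from 344.9 and 291.7 estimated fragments, so that the similar level did not rest on the short transcripts.

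Lcn2, a protein that withholds bacterial iron carriers, which is also made by epithelia, did not follow the other genes. Its level was 9.04, 2.31 and 4.11 FPKM in young replicates 1, 2 and 3. The old replicates had 1.796, 8.87 and 5.69 FPKM. Old replicate 1, the second highest sample for 8 of the genes, was the lowest of all samples for Lcn2. Its highest and second highest values differed by a factor of 1.02.

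Mmp8, the neutrophil collagenase, was at 2.26 FPKM in young replicate 1, from 63.3 fragments. It lay between 0.133 and 0.444 FPKM in the other 5 samples, and old replicate 1 (0.257 FPKM) did not stand out among them. Retnlg, which encodes a secreted resistin-like protein of maturing neutrophils, was at 9.73, 0.453 and 2.03 FPKM in the young samples. Old replicates 1 and 2 had 3.32 and 1.57 FPKM, and it was listed at 0 in old replicate 3, where 1 fragment would be worth 0.253 FPKM.

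S100a8 and S100a9, the calprotectin subunits, were the most abundant of the 10 genes per length. The S100a8 level was 228, 7.71 and 18.2 FPKM in young replicates 1, 2 and 3, and 36.4, 21.6 and 7.97 FPKM in the old replicates. For S100a9 it was 159, 2.60 and 7.17 FPKM in young and 27.4, 16.6 and 5.19 FPKM in old replicates 1 to 3. Both genes gave the same order of the 6 samples. Together they made up between 63.7% and 85.2% of the summed FPKM of the 10 genes. The ratio of S100a8 to S100a9 lay between 1.30 and 1.53 in young replicate 1 and the old samples, and was 2.97 and 2.53 in young replicates 2 and 3. S100a9 rested on few estimated fragments in some samples, with 483.5, 7.6 and 20.7 in young and 73.1, 60.1 and 15.3 in old replicates 1 to 3. The transcripts of both genes are short (486 nt for S100a8, 512 and 519 nt for S100a9), so that no fragment number was estimated for S100a8.

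The difference between old and young mice was then tested. With limma and p adjusted over all genes, 0 of the 10 genes passed the threshold of 0.05, where 9.09% of all genes passed (5.41% higher and 3.68% lower with age). Without the adjustment, at p below 0.05, the count was also 0 of 10, against 27.5% of all genes. The age groups overlapped for all 10 genes, while they did not overlap for 33.5% of all genes. The lowest limma adjusted p was 0.451, for Mmp8. The log2 changes lay between -1.45 (Retnlg, SE 1.46) and 0.45 (Ltf, SE 1.17), with 4 above 0 and 6 below, and a median of -0.28 against 0.01 for all genes tested. The sizes depended on the pseudocount for genes listed at 0 in a sample: Retnlg was at -2.48 and -0.70 with pseudocounts of 0.01 and 1, and Ngp at -1.95 and -0.58. With only the most abundant transcript of each gene S100a9 was at -1.81 in place of -0.12 and the median was -0.61, and with sample weights the median was -0.80. The mean of S100a8 was 84.6 ± 124 FPKM (SD, n = 3) at 1 month, against 22.0 ± 14.2 FPKM (SD, n = 3) at 12 months. Its log2 change was -0.78 (SE 1.18; limma, adjusted p = 0.705). Camp had a mean of 4.40 ± 7.06 FPKM (SD, n = 3) at 1 month, against 1.52 ± 0.902 FPKM (SD, n = 3) at 12 months. Its log2 change was 0.07 (SE 1.31; limma, adjusted p = 0.982), so that its means and its log2 change pointed in opposite directions. The exact permutation test of mean FPKM (two-sided, smallest possible p of 0.1) gave p between 0.4 and 1 for the 10 genes. With standard errors from 0.65 (Lcn2) to 1.65 (Ngp), sizable changes in either direction could not be told from 0.

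The direction changed with single samples. Young replicate 1 was the highest sample for all 10 genes, so that leaving it out could only raise their log2 changes. Without young replicate 1, 8 of the 10 log2 changes were above 0, with a median of 0.88, and 0 of 10 passed (lowest limma adjusted p = 0.168), while 708 of all genes passed in place of 1787. S100a8 moved from -0.78 to 0.64 (SE 0.65), S100a9 from -0.12 to 1.60 (SE 0.73) and Camp from 0.07 to 1.70 (SE 0.64, unadjusted p = 0.0352, limma adjusted p = 0.168). In FPKM, the mean of S100a9 in young replicates 2 and 3 was 4.88, below the old mean of 16.4, while the mean of all 3 young samples was 56.1. The young mean was above the old mean for 9 of the 10 genes with young replicate 1 and below it for 9 of the 10 without it. Young replicate 2 held or shared the lowest young value for all 10 genes, so that leaving it out could only lower the log2 changes. Without young replicate 2, all 10 log2 changes were below 0, with a median of -1.28. Without old replicate 3, 7 were above 0 and 3 below, with a median of 0.23.

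**Figure D2:**
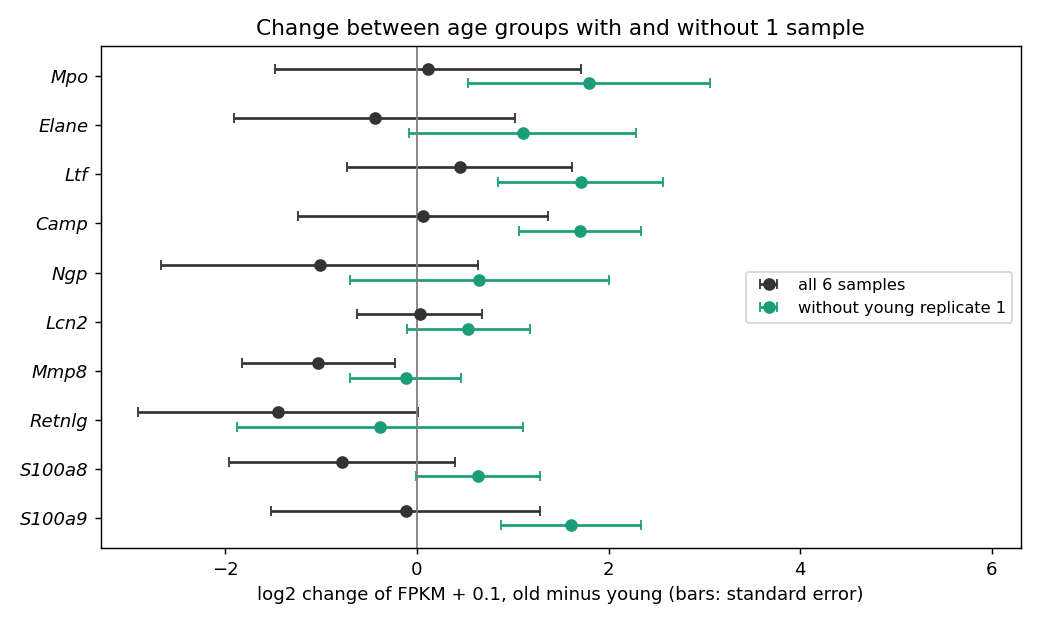
The log2 change of FPKM + 0.1 (old minus young) with its standard error from limma, for all 6 samples (black) and without young replicate 1 (green). All 10 points shift to the right without this sample, as they must since it was the highest for every gene. Of the 10, 8 then lie above 0.

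To set early against late genes within each sample, the FPKM of Mpo and Elane was divided by that of S100a8 and S100a9. In FPKM it was 1.44% in young replicate 1, 4.18% in old replicate 1 and 0.318% in old replicate 2, and 0 in the others. The value of old replicate 1 rests largely on the Mpo fragments assigned to the transcript of 806 nt. The azurophil genes Prtn3 (proteinase 3) and Ctsg (cathepsin G) did not have a higher share in old replicate 1 than in young replicate 1. Their sum was 1.47% of S100a8 and S100a9 in young replicate 1, 1.03% in old replicate 1, and between 0.898% and 2.32% in old replicates 2 and 3 and young replicate 3, and they were listed at 0 in young replicate 2. Prtn3 and Ctsg had an estimated 34.9 and 19.9 fragments in young replicate 1, but at most 4.9 and 1.0 in any other sample. The shares of the other samples therefore carry a large counting error. The specific granule genes Ngp, Camp and Ltf together were at 10.5%, 12.2% and 8.25% of S100a8 and S100a9 in young replicates 1, 2 and 3, and at 24.9%, 15.1% and 12.3% in old replicates 1, 2 and 3. This share varied less than the level of the 10 genes, which was lowest in young replicate 2 and highest in young replicate 1.

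The depth bounds the early share in the samples with few neutrophil RNAs. At the ratio to S100a8 and S100a9 seen in young replicate 1, Elane would give 0.6, 1.4 and 0.8 fragments in young replicates 2 and 3 and old replicate 3, each below the 3 fragments that a count of 0 allows. Mpo would give 1.9, 4.1 and 2.4 fragments in the same samples, where it was listed at 0, and of these only the 4.1 of young replicate 3 lies above 3 fragments. In old replicate 2, 7.9 fragments of Mpo and 2.6 of Elane would be expected at that ratio, and 1.0 and 0 were estimated. In old replicate 1, 10.6 and 3.5 would be expected, and 13.8 and 7.6 were estimated.

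Other genes of the neutrophil lineage were counted by stage. Of 7 early genes, 6 were highest in young replicate 1 and 5 of them by at least 2-fold. These were Prtn3, Ctsg, Ms4a3, Fcnb and Cebpe, which encodes the factor C/EBP-epsilon, and all but Prtn3 were named after their values were seen. Ctsg, Ms4a3 and Cebpe reached the mean of 0.1 FPKM only through young replicate 1, so that the filter fixed their place in this count. Prtn3 was at 3.58 FPKM in young replicate 1 and at most 0.545 FPKM in the other samples. Only Gfi1 passed the limma test in this list, and it was lower in old mice. Gfi1, a repressor needed in granulocyte precursors and also in hair cells, had 1.92, 1.71 and 1.83 FPKM in young and 0.406, 0.432 and 0.267 FPKM in old replicates 1 to 3. The log2 change was -2.05 (SE 0.28; limma, adjusted p = 0.0136), and the call was lost with the most abundant transcript, without old replicate 2 and without both first replicates. Of the hair cell genes in the sensory epithelium list, named after their values were seen, Pou4f3, a hair cell transcription factor, had a log2 change of -1.33 (limma, adjusted p = 0.0567), Ocm -1.18 (adjusted p = 0.0297) and Slc26a5, the outer hair cell motor protein prestin, -1.10 (adjusted p = 0.0194). Other hair cell genes of that list changed less: Tmc1 was at -0.66 (limma, adjusted p = 0.0625), Otof at -0.33 (adjusted p = 0.237) and Myo7a at 0.0018 (adjusted p = 0.997). The part of hair cells in the Gfi1 value was not tested. Gfi1 was alike in the 3 young samples. Prss57, a serine protease of azurophil granules, had no excess in young replicate 1. It was at 1.71 to 2.53 FPKM in young and 3.03 to 4.002 FPKM in old samples, so that the age groups did not overlap. Its log2 change was 0.69 (SE 0.21, limma adjusted p = 0.0875). The median log2 change of the 7 early genes was -0.75.

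Of 8 later granule genes, 7 were tested, 6 were highest in young replicate 1 and 4 of them by at least 2-fold. Chil3, a chitinase-like protein of neutrophils and macrophages, was at 11.0 FPKM in young replicate 1, at 3.40 FPKM in old replicate 2 and between 0.404 and 1.79 FPKM elsewhere. Hp (haptoglobin) was at 4.49 FPKM in young replicate 1 and at most 0.912 FPKM elsewhere. Pglyrp1, a peptidoglycan-binding protein, varied less, between 2.40 and 8.21 FPKM. In this list 0 genes passed in either direction, and 0 had an unadjusted p below 0.05, with limma, and the median log2 change was -0.32.

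Of 15 genes of mature neutrophils, 4 were highest in young replicate 1 and 1 by at least 2-fold. Their median log2 change was 0.40, and 2 of 15 passed, both higher in old mice, where 5.41% of all genes were higher. Csf3r, the G-CSF receptor, was at 0.378 to 0.472 FPKM in young and 1.06 to 1.59 FPKM in old samples (log2 change 1.502, SE 0.29, limma adjusted p = 0.0276). Clec4d, a C-type lectin of myeloid cells, was at 0.349 to 0.776 FPKM in young and 2.22 to 3.24 FPKM in old samples (log2 change 2.03, SE 0.32, limma adjusted p = 0.0195). With any 1 old sample left out, 0 genes of this list passed, and without young replicate 1 or 2 only 1 did. Monocytes and macrophages also express both genes. G0s2, the most abundant of the list, lay between 73.9 and 163 FPKM and is also expressed by many other cells, and Il1b, the next in mean level after Clec4d, lay between 0.473 and 2.15 FPKM. The defining surface markers, named after their values were seen, were low. Ly6g was listed at 0 in 3 of the 6 samples and reached 2.17 FPKM in old replicate 2, where S100a8 was below both first replicates, and Cxcr2, which passed the filter only through young replicate 1, reached 0.312 FPKM there.

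**Figure D3:**
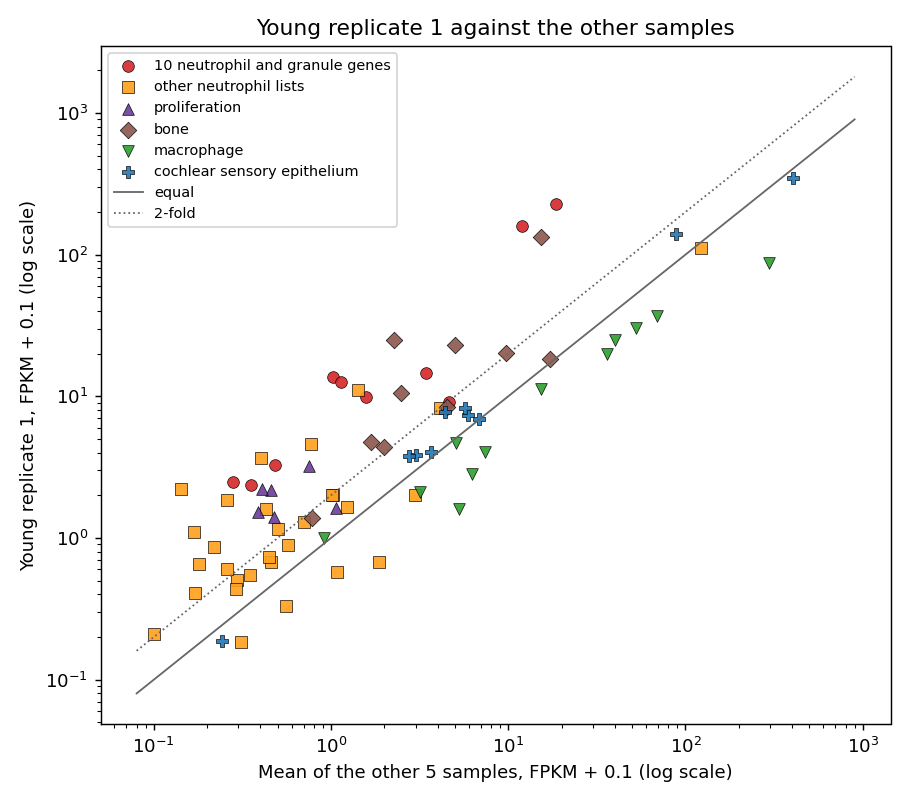
FPKM + 0.1 in young replicate 1 against the mean of the other 5 samples, both on log axes, with 1 point per listed gene. The 10 neutrophil and granule genes lie above the line of equal values and the macrophage genes near or below it.

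Several markers of other cells shared the maximum in young replicate 1, and the order of the other samples varied between them. The erythroid gene Rhag, named after its values were seen, had the same order of the 6 samples as Ngp. The sum of the proliferation genes was second highest in old replicate 1 (4.28 FPKM). All 6 proliferation genes were highest in young replicate 1, 4 of them by at least 2-fold, and their summed FPKM was 11.6 there and between 1.30 and 4.28 in the other samples. Among them, Birc5 (survivin) was at 3.12 FPKM in young replicate 1 and at most 0.865 FPKM elsewhere, and Cdk1 at 1.54 and at most 1.23 FPKM. All 9 erythroid genes tested were highest there too, 4 of them by at least 2-fold. The globins Hbb-bs (1585 FPKM in young replicate 1, 1560 FPKM in young replicate 3) and Hba-a2 (568 and 495 FPKM) were also high in young replicate 3. In old replicate 1, the second highest sample for 8 of the neutrophil genes, the erythroid sum was the lowest of the 6 samples (1370 FPKM) and Hba-a2 was at 81.5 FPKM. Slc4a1, the anion exchanger of red cells, named after its values were seen, was at 4.40 FPKM in young replicate 1 and at most 0.564 FPKM elsewhere. Of the B cell progenitor genes, 3 of 5 tested were highest in young replicate 1, of which Pax5 passed the filter only through that sample. The sum of the list was highest in old replicate 1 (36.9 FPKM), but 35.7 FPKM of it was Ebf1. In young replicate 1 the sum was 36.1 FPKM, with Ebf1 at 31.0 FPKM. Vpreb3, a surrogate light chain partner of B cell precursors, was at 2.48 FPKM in young replicate 1 and at most 0.721 FPKM elsewhere. Ebf1 lay between 29.0 and 35.7 FPKM. Of 8 eosinophil, basophil and mast cell genes, 2 were tested, Prg2 (1.79 FPKM in young replicate 1, at most 0.440 FPKM elsewhere) and Epx (0.564 and at most 0.0662 FPKM), and Epx passed the filter only through young replicate 1. Of those not tested, Mcpt8, Mcpt4, Cpa3 and Cma1, named after their values were seen, were listed at 0 in young replicate 1 and reached between 0.207 and 0.511 FPKM in another sample, and the mast cell tryptase Tpsb2 was listed at 0 in all samples.

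Bone genes were also high in young replicate 1. Their summed FPKM was 249, 47.5 and 120 in young replicates 1, 2 and 3 and between 40.3 and 46.1 in the old samples, and 8 of 10 were highest in young replicate 1. Bglap (osteocalcin) was at 133, 8.61 and 51.3 FPKM in the young samples and between 2.20 and 8.09 FPKM in the old ones, and Alpl, a phosphatase of mineralizing cells, between 9.14 and 22.0 FPKM in all. Old replicate 1, second in the neutrophil genes, had the lowest sum of the bone genes, 40.3. With age, 2 of the 10 bone genes were lower with limma, Ibsp and Sp7, and 0 higher, against 3.68% lower of all genes. All 10 had an unadjusted p below 0.05 and age groups that did not overlap, 9 lower and 1, Alpl, higher. Of all genes, 27.5% had such a p and 33.5% did not overlap. The part of marrow, blood or bone in the neutrophil values was not tested.

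The macrophage genes did not share this order. Their summed FPKM was between 141 and 226 in the young and between 756 and 825 in the old samples. Of the 12, 0 were highest in young replicate 1, and 9 were higher in old mice with limma, against 5.41% of all genes. Lyz2 (lysozyme), which neutrophils express as well, was at 61.2 to 86.9 FPKM in young and 400 to 511 FPKM in old samples (log2 change 2.64, SE 0.14, limma adjusted p = 0.00178), and C1qa, a complement subunit, at 19.8 to 36.9 and 90.8 to 118 FPKM. The sensory epithelium list summed to between 465 and 612 FPKM, with young replicate 1 at 527, but most of this sum was Gjb2. Of its 10 genes, 2 were lower in old mice with limma, Ocm and Slc26a5, against 3.68% of all genes. The age groups did not overlap for 4 of the 10, near the 33.5% of all genes.

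**Figure D4:**
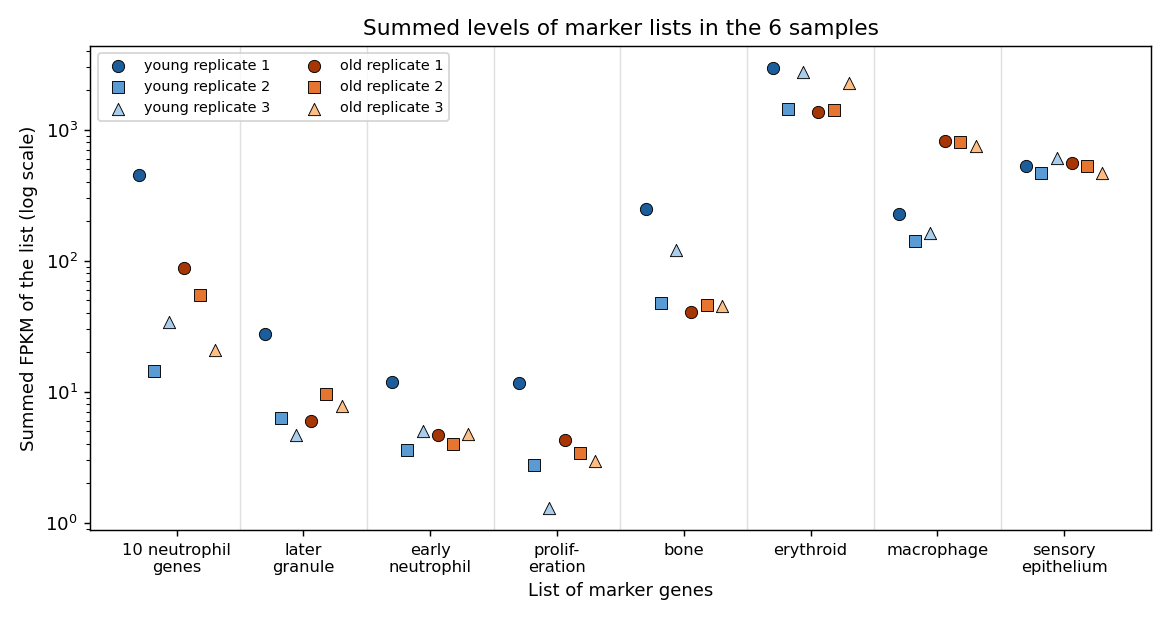
Summed FPKM of 8 marker lists on a log axis, with 1 point per sample. Young replicate 1 is the highest point for the neutrophil, proliferation, bone and erythroid lists, and the macrophage list separates the age groups.

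The genes most like the neutrophil genes over the 6 samples were sought in the whole table. The centred log2 values of the 7 genes with a mean of at least 1 FPKM were averaged. Of 15067 other genes with such a mean, the 10 with the smallest root mean square difference from this average were named, over 6 samples, as a description. They were Mobp (0.38 on the log2 scale), Chil3 (0.53), Hist1h2an (0.58), Ifitm6 (0.68), Hist1h1b (0.78), Hist1h2bp (0.86), LNC_000869 (0.93), Wfdc21 (0.94), Prc1 (0.95) and LNC_000082 (0.95). The median difference over all these genes was 1.60. S100a8 itself had 0.29, S100a9 0.46, Camp 0.50, Ltf 0.56, Ngp 0.88, Retnlg 1.01 and Lcn2 1.496, all of which were part of the average. Ifitm6 and Wfdc21 are known from myeloid cells, the 3 histone genes and Prc1 from dividing cells, and Mobp from the myelin of the central nervous system. Mobp was at 4.54 FPKM in young replicate 1 and between 0.0761 and 0.773 FPKM in the other samples. Reads of the histone genes may be shared with near-identical copies, so that their values are uncertain.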

How the data were processed

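RNA-sequencing values of 3 young and 3 old pooled cochlear samples were used. The authors made directional libraries, aligned paired-end reads to GRCm38, assembled transcripts with Cufflinks (2.1.1) and computed the deposited FPKM per transcript with Cuffdiff (2.1.1). The submitters' processing notes also name TopHat2 (2.0.9) and CASAVA (1.8). The annotation release, the scaling between libraries and the use of strand in counting are not given in the sources used here. Samples were grouped by their labels. Of 55679 Ensembl transcripts, 55275 were matched to GENCODE M21, and FPKM was summed per gene.

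Genes with a mean of at least 0.1 FPKM were tested with limma 3.58.1 in R 4.3.3 (lmFit, eBayes with trend) on log2(FPKM + 0.1), with the Benjamini-Hochberg adjustment over all genes tested and a threshold of 0.05. Fold changes of low genes are understated by the pseudocount. Nothing names separate dissections beyond the pools, so that p-values measure the spread between these samples.

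The depth was estimated from transcripts of 1000 to 4000 nt alone in their gene, whose length was reduced by 280 or 300 nt. In each sample 93.7 to 94.9% of low values lay within 0.1 of a whole number of fragments, against 20% by chance. The code was tested on simulated data.

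The members and lists were chosen with earlier results of these data known. Named are the 10 genes. Of the other neutrophil lists, genes past the threshold and the 3 with the highest mean are named, and of other lists the 2 highest and those at 0 in all samples. Exceptions are marked. Varied settings were the pseudocount, filter, scaling, variance trend, sample weights, a block for the replicate number, the transcript used, the threshold and each sample left out. Leaving out both first replicates was chosen after seeing the data.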

Additional observations from a re-analysis of the deposited data

How the results depend on the processing

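No gene of the 10, and no later granule gene, passed the threshold in any of the 19 other settings run, of which a mean of at least 1 FPKM left 7 of the 10 tested and leaving out both first replicates 8. The direction of single genes was less stable. In 4 settings the log2 changes are the same by construction. Of the 128 changes recomputed in the others, 97 kept the direction and 31 did not, and 0 passed the threshold (lowest limma adjusted p 0.164). Outside of left-out samples, the direction turned for Camp (-0.27 with a pseudocount of 1, -0.067 with quantile normalization, -0.12 with sample weights), Mpo (-0.14, -0.023 and -0.55) and Lcn2 (-0.0063 with quantile normalization). With samples left out, the log2 change ranged from -1.80 to 0.64 for S100a8, -1.34 to 1.60 for S100a9, -2.16 to 0.65 for Ngp, -0.78 to 1.70 for Camp, -0.44 to 1.71 for Ltf, -1.10 to 1.79 for Mpo, -1.55 to 1.10 for Elane, -0.45 to 1.18 for Lcn2 and -2.47 to 0.078 for Retnlg. Without both first replicates, S100a8 was at 0.15 and S100a9 at 1.09. The counts over all genes, 1063 higher and 724 lower, were 616 and 292 with no filter, 271 and 121 without the variance trend, 2843 and 2560 at an unadjusted p, and 405 and 245 with a 2-fold minimum. With 1 sample left out they lay between 44 and 935 and between 15 and 821, lowest without old replicate 2, and they were 27 and 7 without both first replicates. Over all genes, samples with the same number did not deviate together (correlations of -0.0416 to 0.0221). With a replicate block 410 genes were higher and 265 lower. For 8 of the 10 genes, however, young replicate 1 was highest and old replicate 1 next. With the block their standard errors were smaller for all but Lcn2 (0.65 to 0.75), as for Mpo (1.60 to 0.59) and Ngp (1.65 to 0.72). Still 0 of the 10 passed (lowest limma adjusted p 0.420). The 2 mature neutrophil genes became 1 with a mean of at least 1 FPKM, with the replicate block, with the most abundant transcript, and without young replicate 1 or 2, and 0 without any old sample. Gfi1 was not called (0 early genes) with the most abundant transcript, without old replicate 2 and without both first replicates, and at an unadjusted p 1 early gene was also higher. The depth limits values listed at 0, since 1 fragment of Elane was worth 0.0914 to 0.117 FPKM, near the pseudocount, and 1 of Retnlg 0.206 to 0.274 FPKM.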

Other observations

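Of the 7 tested genes of mature lymphocytes, 1 was higher in old mice with limma, against 5.41% of all genes. Cd3e, Cd3d and Cd8a, named after their values were seen, and Cd4 had an unadjusted p below 0.05 and age groups that did not overlap, all higher in old mice. Cd4, a T cell co-receptor that some macrophages also carry, was at 0.307 to 0.960 FPKM in young and 2.57 to 3.36 FPKM in old samples (log2 change 2.13, SE 0.37, limma adjusted p = 0.0227). Cd79b, a subunit of the B cell receptor, was at 1.16 FPKM in young replicate 1 and at most 0.280 FPKM elsewhere. Of the platelet and megakaryocyte genes, Pf4 (platelet factor 4) measured 11.1, 2.42 and 1.62 FPKM in young replicates 1, 2 and 3. The old replicates had 11.7, 10.9 and 6.98 FPKM (limma, adjusted p = 0.204), and Itga2b lay between 1.95 and 3.63 FPKM. S100a9 has 2 transcripts in the table, of 512 and 519 nt. The first held most of the FPKM in 4 samples, but 0.0024 of 5.19 FPKM in old replicate 3, and both held similar amounts in young replicate 3 (3.75 and 3.42 FPKM).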
